A study of Caenorhabditis elegans with 4 samples.

Results

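The proteasome and ubiquitin genes of the nematode Caenorhabditis elegans were followed in adult males against a reference of mixed stages. The genes were those whose symbol in the platform's probe annotation begins with pas-, pbs-, rpt-, rpn-, uba-, ubq-, uev-, ubh- or usp-. The rule also named the ubc- genes of the conjugating enzymes, but no probe annotated here carries such a symbol, and that family is not analysed here. The remaining names gave 49 genes read by 51 of the 20000 probes. Of these genes, 31 encode proteasome subunits. The other 18 encode ubiquitin itself or members of the enzyme families that attach or remove it or a ubiquitin-like protein. The genes pas-3, pbs-1, ubh-2, ubh-3 and usp-3 also bear such names but were not analysed.

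The data are 4 two-colour DNA microarrays. On each, channel 2 held mRNA of him-5 adult males from preparation 1, 2, 3 or 4, and channel 1 held wild-type mixed-stage reference RNA, so that the males make up the only group. The gene him-5 acts in X-chromosome segregation at meiosis, and its mutants are used because they yield many males. Every male sample carried the mutation and the reference did not, so sex, mutation and stage cannot be told apart. The labels do not say that the preparations were separate cultures, and p-values measure only the spread between these samples, which may be technical. The test of a ratio against 0 leaves out the spread of the reference itself. Whole animals were used, and a lower ratio can mean fewer cells of a type or less RNA per cell, which cannot be told apart.

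Proteins are marked for destruction by chains of ubiquitin, a small protein that an activating enzyme (E1) passes to a conjugating enzyme (E2) and that a ligase (E3) fixes to the target. The 26S proteasome then takes in the tagged protein. Its 19S regulatory particle binds, unfolds and de-ubiquitinates it, and its barrel-shaped 20S core cuts it. Ubiquitin-specific proteases remove the tag, from proteins at the proteasome or elsewhere. In the worm this system acts in every tissue and is needed for meiosis, for the clearance of oocyte proteins in the embryo and for sex determination.

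All values are log2 ratios as deposited, males over reference. No dye is named, so that direction is likely and not settled: it rests on the series title and the channel labels. The markers bear on it. Of 35 sperm marker genes, 34 were higher and none was lower, with medians of 4.03 to 5.04 on the arrays. Most of them were msp- genes of a single family. The others, spe-11, gsp-3, gsp-4, fer-1 and ssp-16, averaged 2.08 to 5.29 and were all called higher. Of 9 oocyte markers 7 were lower and 1 was higher (medians -1.93 to -1.06), and of 7 markers of male neurons 6 were higher and 1 was lower (medians 0.65 to 1.21). The part of these cell types in the values that follow was not tested. Each array gave 19424 to 19761 values. Preparation 2 stood apart from the others in the ribosomal protein genes, whose median was 1.1 there and 0.04 to 0.33 on the rest. The chemoreceptor genes stood apart there too, with a median of 0.78 against 0.13 to 0.27 on the rest. Results below are given with and without preparation 2 where it matters. Of 19214 features tested by limma, 45.7% were called at an adjusted p under 0.05, with 22.1% higher and 23.6% lower. Each array was also shifted so that its ribosomal protein genes, or its chemoreceptor genes, had a median of 0, called ribosomal and chemoreceptor centring here. The share of calls that were higher was 26.4% under ribosomal centring and 26% under chemoreceptor centring, beside 48.3% as deposited, and the all-feature median shifted by -0.40 and -0.34.

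As deposited, most transcripts of the proteasome and ubiquitin genes stood close to the reference level in males. Their median was -0.07, against 0.05 for all features, and was -0.47 under ribosomal and -0.42 under chemoreceptor centring. Of the 48 that could be tested, 5 were called higher, 6 lower and 37 were not called, so 22.9% were called, against 45.7% of all features. The higher genes were rpn-6.2, rpn-13, uba-5, pbs-2 and pbs-5, and the lower ones were usp-33, usp-46, uev-3, usp-48, rpn-8 and usp-4. Leaving out preparations 1 to 4 in turn gave 7, 11, 4 and 7 called genes. The median size of the mean log2 ratio, taken without its sign, was 0.24 over these genes and 0.55 over all features. For 37 of the 48 the 95% interval of the mean lay wholly within 2-fold of the reference, which held for 46.8% of all features. These intervals bound the change only as deposited and for the spread between these samples, and the count was not repeated under either centring. A missed threshold alone does not show that a level was the same. Of the 47 with values on 4 arrays, 18 had the same sign on each, against 63.1% of all such features. The untested gene was pas-7, which encodes an alpha subunit and had values on preparations 1 and 2 only, at 0.82 and 1.21.

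**Figure D1:**
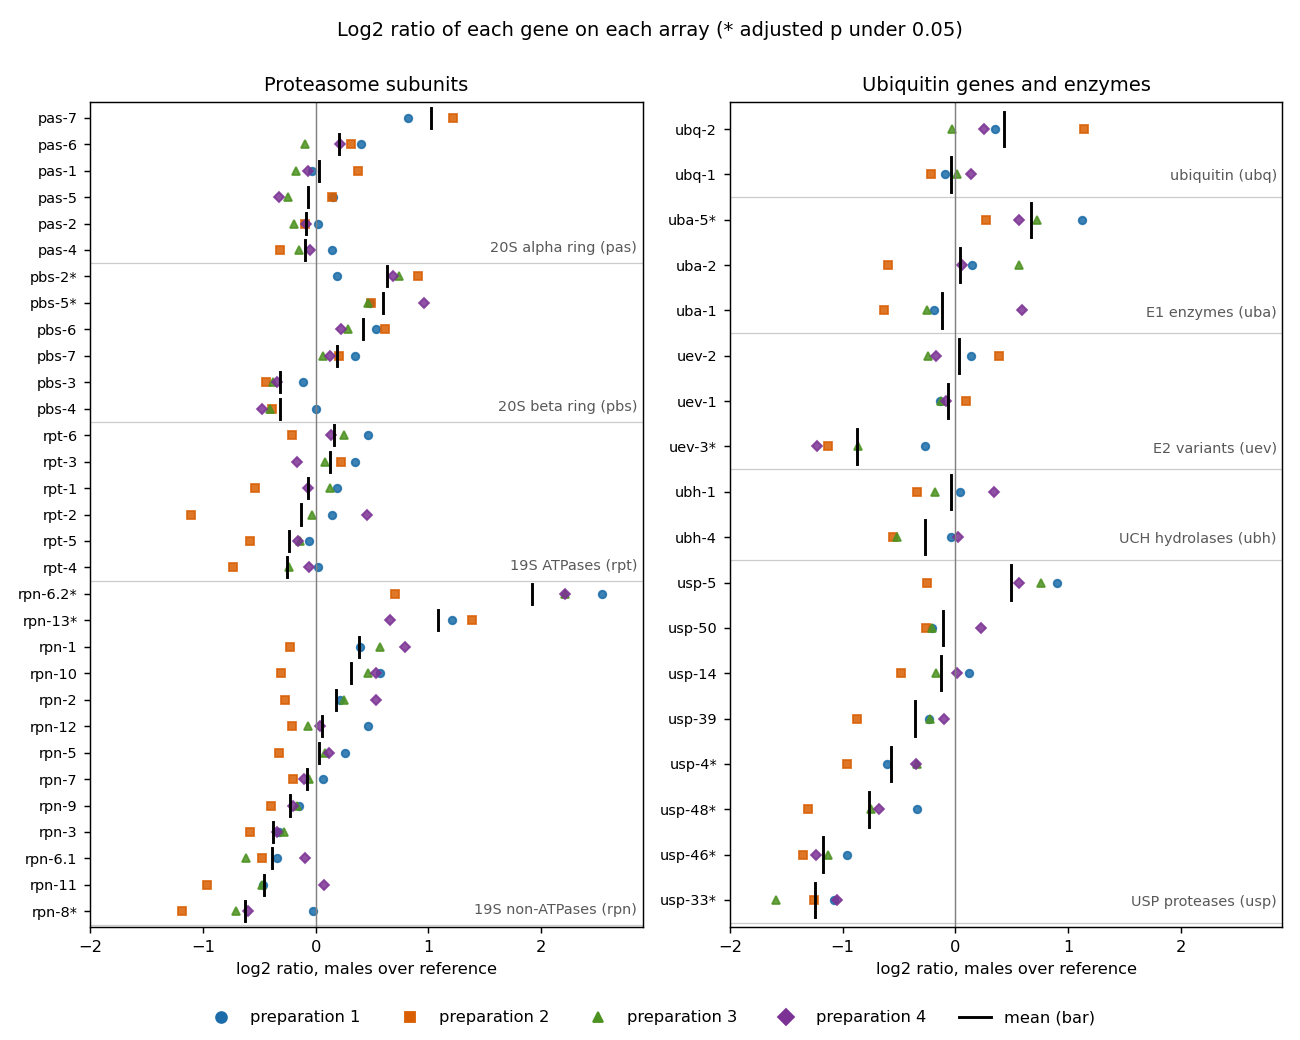
Log2 ratio (males over reference) of each of the 49 genes on each array, with proteasome subunits on the left and ubiquitin genes and enzymes on the right. Symbols mark preparations 1 to 4, the black bar is the mean, and an asterisk marks an adjusted p under 0.05. Most subunits cluster near 0, rpn-6.2 lies to the right at a mean of 1.92, and usp-33 and usp-46 lie to the left at -1.25 and -1.17 on average.

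The alpha ring, which forms the gate of the 20S core, had 5 tested genes near the reference level as deposited. None of the 5 was called by limma, against 45.7% of all features. None had an unadjusted p under 0.05, against 10442 of 19214 features. The means of the 5 ran from -0.09 for pas-4 to 0.21 for pas-6. No alpha gene had the same sign on 4 arrays, against 63.1% of features with values on 4 arrays. The 95% interval of all 5 lay within 2-fold of the reference, against 46.8% of all features. The sixth gene measured, pas-7, stood higher than these at a mean of 1.02 over its 2 values. It was called when features with 2 values were tested too. The alpha gene pas-3 was not analysed. The median of the 5 was -0.07 as deposited, -0.47 under ribosomal and -0.41 under chemoreceptor centring.

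The beta ring carries the cutting sites, and 2 of its catalytic subunits were higher in males. Another 2 beta genes averaged below 0 and were not called. Thus 2 of 6 tested beta genes were called, against 45.7% of all features. The beta gene pbs-1 was not analysed. The gene pbs-5, for the chymotrypsin-like subunit, had 0.48, 0.49, 0.46 and 0.96 on preparations 1 to 4, a mean of 0.60 ± 0.24 (SD, n = 4) or 1.52-fold (limma adjusted p = 0.0267). Preparations 1 to 3 were nearly equal and preparation 4 stood above them. The gene pbs-2, for the trypsin-like subunit, had 0.19, 0.91, 0.74 and 0.68, a mean of 0.63 ± 0.31 (SD, n = 4) or 1.55-fold (limma adjusted p = 0.0273). Preparation 1 was the low one, and both probes of the gene were above 0 wherever they gave a value, at probe means of 0.56 and 0.64. The probe with values on 4 arrays was not called when tested alone (0.56, adjusted p = 0.0552). By contrast pbs-3 and pbs-4, which encode structural subunits, averaged -0.32 each and were not called, and no array of either lay above 0 to 2 decimals. The genes pbs-6 and pbs-7 averaged 0.42 and 0.19 and were not called, and both were above 0 on all arrays. The ring's median was 0.30, but -0.10 under ribosomal and -0.04 under chemoreceptor centring, so its direction depends on the scaling.

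Both beta calls were lost under some settings. Under ribosomal and chemoreceptor centring pbs-5 stood at 0.20 (adjusted p = 0.657) and 0.25 (adjusted p = 0.39) by limma, and pbs-2 at 0.23 (adjusted p = 0.57) and 0.29 (adjusted p = 0.263). The gene pbs-5 was also uncalled when preparation 1, 3 or 4 was left out, with means of 0.64, 0.64 and 0.48 and limma adjusted p of 0.0689, 0.091 and 0.09. The gene pbs-2 was uncalled when preparation 2, 3 or 4 was left out, with means of 0.54, 0.59 and 0.61 and limma adjusted p of 0.0593, 0.124 and 0.0678.

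As deposited, the 6 ATPases of the 19S base, which unfold the substrate and thread it into the core, were not called. None had an unadjusted p under 0.05 by limma. Among all features 45.7% were called and 10442 of 19214 had such an unadjusted p. The ATPase means ran from -0.25 for rpt-4 to 0.16 for rpt-6. Their median of -0.10 was -0.50 under ribosomal and -0.45 under chemoreceptor centring. In 5 of the 6 the lowest array was preparation 2, and the widest case was rpt-2 with 0.15, -1.11, -0.03 and 0.46. Without preparation 2 its mean was 0.19, against -0.13 with it.

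Of the 13 non-ATPase subunits of the 19S particle, 2 were higher, 1 was lower and 10 were not called, beside 45.7% of all features called. The scaffold subunit genes rpn-1 and rpn-2 averaged 0.38 and 0.18. The lid genes rpn-3, rpn-5, rpn-7, rpn-9 and rpn-12 averaged between -0.38 and 0.06. The gene rpn-12 had 0.46, -0.21, -0.07 and 0.04, on both sides of 0. Among them rpn-3 and rpn-9 were below 0 on every array, with small spread (SD 0.14 and 0.11, n = 4). The gene rpn-11, for the lid's de-ubiquitinating metalloprotease, had -0.47, -0.97, -0.48 and 0.07 and was not called at a mean of -0.46 ± 0.42 (SD, n = 4). Its partner in the lid, rpn-8, had -0.02, -1.19, -0.70 and -0.60 and was called lower at -0.63 ± 0.48 (SD, n = 4, limma adjusted p = 0.049). Preparation 1 was at the reference level and preparation 2 lowest. Leaving out preparation 2, 3 or 4 ended that call, with means of -0.44, -0.60 and -0.64 and limma adjusted p of 0.119, 0.157 and 0.094, and so did ribosomal centring (-1.03, adjusted p = 0.0625) and scale normalization (-0.56, adjusted p = 0.0524).

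The ubiquitin receptors of the 19S particle included 1 called gene. The gene rpn-10, whose loss feminises the hermaphrodite germline, had 0.57, -0.31, 0.46 and 0.53 and was not called at 0.32 ± 0.42 (SD, n = 4). Preparations 1, 3 and 4 lay close together and preparation 2 was on the other side of 0. Without preparation 2 its mean was 0.52 and it was called (limma adjusted p = 0.0349), as were rpn-1 at 0.58 (adjusted p = 0.034) and the protease gene usp-5 at 0.74 (adjusted p = 0.0155). The other receptor, rpn-13, had 1.21, 1.39 and 0.66 on preparations 1, 2 and 4 and no value on preparation 3. Its mean of 1.09 ± 0.38 (SD, n = 3) is 2.12-fold (limma adjusted p = 0.0103), with all values on one side of 0. A second probe, annotated to rpn-13 together with the sterol-metabolism gene let-767, had 0.33, -0.25, 0.07 and 0.22 and averaged 0.09 ± 0.25 (SD, n = 4), and it lay below the first by 0.44 to 1.64 on the arrays that gave both. The call of rpn-13 ended without preparation 1 (1.02, adjusted p = 0.0523), under ribosomal centring (0.56, adjusted p = 0.245) and under chemoreceptor centring (0.69, adjusted p = 0.0758).

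The paralogues rpn-6.1 and rpn-6.2 had ratios on opposite sides of 0. Both encode forms of the lid subunit RPN-6, which holds the regulatory particle to the core, and rpn-6.1 is known from longevity studies of worms without a germline. The gene rpn-6.1 had -0.35, -0.48, -0.61 and -0.09, with every array below 0, and was not called at a mean of -0.38 ± 0.22 (SD, n = 4, limma adjusted p = 0.104). The gene rpn-6.2 had 2.54, 0.71, 2.21 and 2.21 and was called higher at 1.92 ± 0.82 (SD, n = 4, limma adjusted p = 0.00227), a 3.77-fold mean. Preparation 2 gave its lowest value, still above all values of rpn-6.1, and the genes do not overlap on any array.

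The log2 ratio of rpn-6.1 minus that of rpn-6.2 was -2.88, -1.19, -2.82 and -2.30 on preparations 1 to 4. The mean difference of -2.30 ± 0.79 (SD, n = 4) is a 4.92-fold gap between the ratios. An exact sign-flip permutation test, two-sided, gave p = 0.13, the smallest that 4 arrays allow, with the same sign on 4 of 4 arrays. Without preparation 2 the mean difference was -2.67. Only 1 pair of the genes shares a name up to a number after a dot, so no adjustment over pairs applied. The difference shows unequal change and sets no level of one gene against the other, since the arrays compare each probe only with itself. Of the 11 called genes, rpn-6.2 was one of 3 that stayed called under each of the 17 alternative settings tried, with usp-33 and usp-46. Its mean under those settings ran from 1.51 to 2.32.

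**Figure D2:**
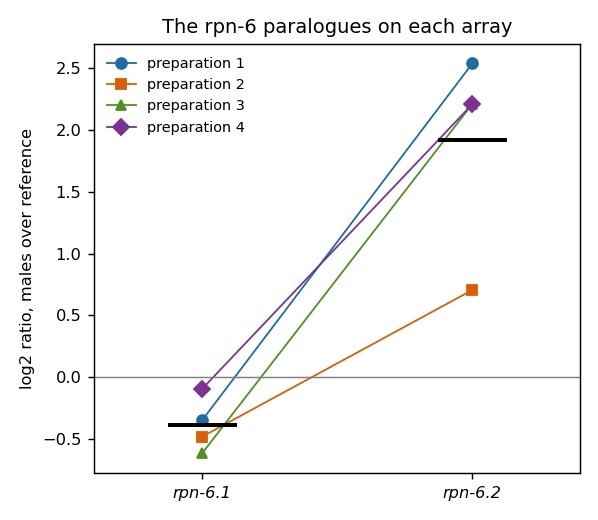
Log2 ratio (males over reference) of rpn-6.1 and rpn-6.2 on each array. Lines join the values of 1 preparation and black bars are the means of 4 arrays. Each rpn-6.1 value lies below 0, each rpn-6.2 value lies above it, and preparation 2 has the smallest gap at -1.19.

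Ubiquitin itself is made from the polyubiquitin gene ubq-1 and from ubq-2, in which ubiquitin is fused to a ribosomal protein. The gene ubq-1 had -0.09, -0.22, 0.01 and 0.14 and averaged -0.04 ± 0.15 (SD, n = 4). Its 95% interval as deposited, -0.42 to 0.34, excludes a 2-fold difference in either direction. The gene ubq-2 had 0.35, 1.14, -0.03 and 0.25 and was not called at 0.43 ± 0.50 (SD, n = 4). Its high array was preparation 2, where the ribosomal protein genes also had their highest median, 1.1. The part of that shift in the ubq-2 value was not tested. Without preparation 2 its mean was 0.19.

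Of the activating enzymes, only the E1 of a ubiquitin-like protein was called. The gene uba-1, for the ubiquitin E1, had -0.19, -0.63, -0.25 and 0.59, with arrays on both sides of 0, and was not called at -0.12 ± 0.52 (SD, n = 4). The gene uba-2, for a subunit of the SUMO E1, was read by 2 probes that disagreed: the first averaged 0.39 and the second -0.30, and the first was higher on all arrays, by 0.28 to 1.06. Averaged over both probes the gene had 0.15, -0.60, 0.57 and 0.05, and its mean of 0.04 ± 0.48 (SD, n = 4) was not called. The gene uba-5, for the E1 of the ubiquitin-like protein UFM1, had 1.13, 0.27, 0.73 and 0.56 and was higher at 0.67 ± 0.36 (SD, n = 4, limma adjusted p = 0.0256), or 1.59-fold. All arrays were above 0. It was uncalled without preparation 1 or 3, with means of 0.52 and 0.65 and limma adjusted p of 0.112 and 0.106. Ribosomal centring gave 0.27 (adjusted p = 0.591) and chemoreceptor centring 0.33 (adjusted p = 0.375).

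The uev- genes encode proteins related to conjugating enzymes that lack the catalytic cysteine. The genes uev-1, a partner of the E2 that builds lysine-63 chains, and uev-2 averaged -0.06 and 0.03 and were not called. The gene uev-3, which acts with a p38-type kinase in neurons, had -0.27, -1.13, -0.87 and -1.23 and was lower at -0.87 ± 0.43 (SD, n = 4, limma adjusted p = 0.0125). Preparation 1 was nearest the reference and the other arrays lay together. Its call was lost without preparation 3, where the mean was the same to 2 decimals (-0.87, adjusted p = 0.053). The gene let-70, for an E2 outside the naming rule and named after its values were seen, averaged -0.48 ± 0.08 (SD, n = 4, limma adjusted p = 0.0416), and leaving out any single preparation lost that call (adjusted p = 0.0511 to 0.185).

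The ubiquitin-specific proteases, which take ubiquitin off proteins or chains, held 4 of the 6 lower genes. Of 8, 4 were lower, none was higher and 4 were not called, against 23.6% of all features called lower. The gene usp-33 had -1.08, -1.26, -1.60 and -1.05, a mean of -1.25 ± 0.25 (SD, n = 4, limma adjusted p = 0.00134), which is 2.37-fold below the reference. The gene usp-46, which controls the turnover of a glutamate receptor in the ventral nerve cord, had -0.96, -1.35, -1.13 and -1.24, a mean of -1.17 ± 0.16 (SD, n = 4, limma adjusted p = 0.00135) or 2.25-fold below. Both were lower on all arrays with little spread. Across the alternative settings usp-33 ran from -1.65 to -1.13 and usp-46 from -1.57 to -1.11, with the call kept in each.

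The other called proteases moved less. The gene usp-48 had -0.34, -1.3, -0.75 and -0.68, a mean of -0.77 ± 0.40 (SD, n = 4, limma adjusted p = 0.0184). Leaving out preparation 3 ended the call at the same mean to 2 decimals (adjusted p = 0.072). The gene usp-4 had -0.61, -0.96, -0.34 and -0.35, a mean of -0.57 ± 0.29 (SD, n = 4, limma adjusted p = 0.0375). Preparation 2 was lowest in both. Leaving out any preparation ended the usp-4 call, with limma adjusted p = 0.113, 0.0669, 0.0953 and 0.0527 without preparations 1 to 4 and means of -0.64 to -0.43, and so did ribosomal centring (-0.97, adjusted p = 0.057).

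The proteases tied to the proteasome or to splicing were not called. The genes usp-14 and ubh-4, whose human counterparts bind the 19S particle and trim chains there, averaged -0.13 ± 0.26 and -0.27 ± 0.31 (SD, n = 4). The gene usp-14 had 0.12, -0.48, -0.18 and 0.01. The gene ubh-4 had -0.04, -0.55, -0.52 and 0.03, low on preparations 2 and 3 and near 0 on the others. The gene usp-39, a counterpart of a splicing factor, averaged -0.36 and reached -0.87 on preparation 2. The genes usp-50 and ubh-1 averaged -0.11 and -0.03. The gene usp-5, which takes free chains apart, had 0.90, -0.25, 0.76 and 0.56 and averaged 0.49 ± 0.52 (SD, n = 4), with preparation 2 as the only array below 0.

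**Figure D3:**
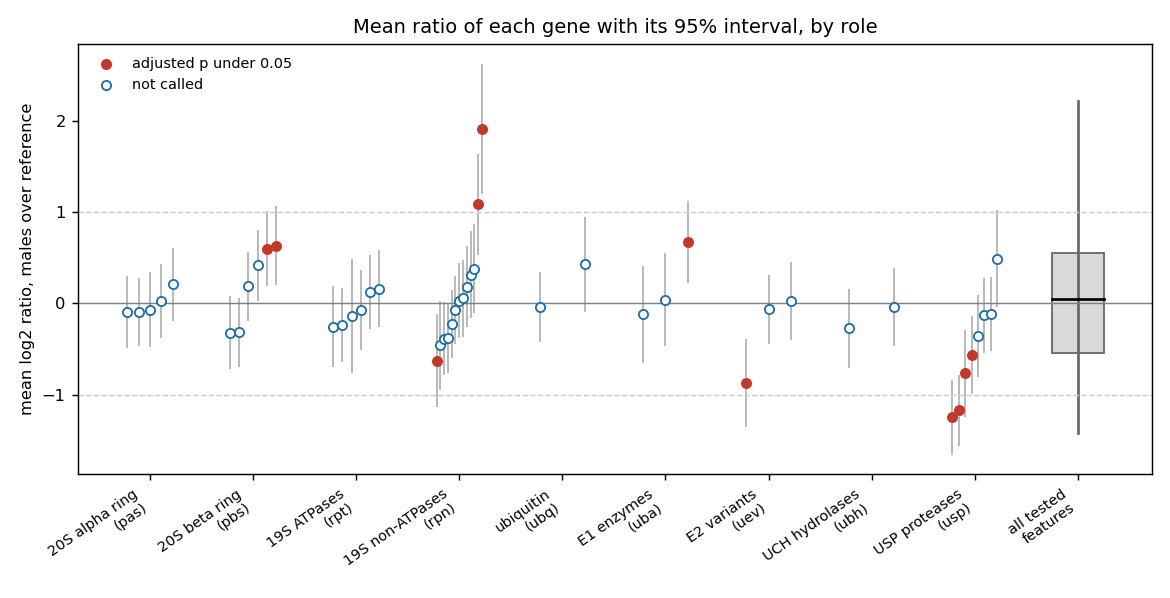
Mean log2 ratio (males over reference) of each tested gene, grouped by role, with its 95% interval from limma as a grey line; filled red points have an adjusted p under 0.05 and open blue points were not called, and dashed lines mark 2-fold either way. The bar on the right gives the 25th to 75th percentile of all 19214 features (-0.55 to 0.55), its black line the median and its stem the 5th to 95th percentile (-1.42 to 2.21). Alpha ring and ATPase genes lie close to 0, and the USP proteases reach the most negative means.

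The genes also differed in how they varied between preparations. The median SD over arrays was 0.22 for 20S genes, 0.31 for 19S genes and 0.39 for all features with values on 4 arrays. Preparation 2 had the lowest value in 16 of 18 such 19S genes and in 7 of 8 USP genes, but in 2 of 11 20S genes, and in 7354 of 18642 features overall. On that array the 20S median was 0.21 and the 19S median -0.33, a difference of 0.54 for 20S minus 19S, against -0.04, -0.11 and -0.09 on preparations 1, 3 and 4. Thus core and regulatory subunits had nearly the same median on 3 arrays and parted on 1. The same array carried the high ribosomal protein and chemoreceptor medians, and the part of those shifts in this result was not tested.

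**Figure D4:**
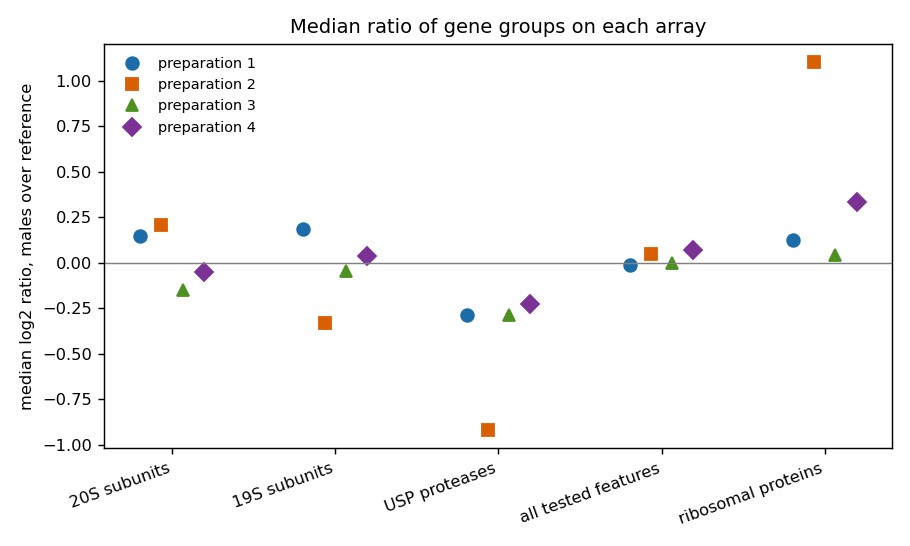
Median log2 ratio (males over reference) of the 20S subunits, the 19S subunits, the USP proteases, all tested features and the ribosomal protein genes on each array, with 1 symbol per preparation. On preparation 2 (orange squares) the 19S and USP medians lie at -0.33 and -0.92 while the ribosomal protein median lies at 1.1.

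The arrays fall into an earlier pair, preparations 1 and 2, and a later pair, preparations 3 and 4, by their titles. All 11 called genes kept the same sign in both pair means. The calls rest on these same 4 arrays and favour such genes, so this is no separate test of the periods. For rpn-6.2 these were 1.62 and 2.21, for usp-33 -1.17 and -1.32, for usp-46 -1.15 and -1.19, and for rpn-8 -0.60 and -0.65. With the period as a covariate in limma, however, rpn-8 was no longer called (adjusted p = 0.061). Pair means lay on opposite sides of 0 for 14 of the 48 genes with values in both pairs, none of them called, among them rpt-2 at -0.48 and 0.21 and uba-1 at -0.41 and 0.17. Pair means are given as values, with no test within a pair.

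Of 14 tested genes for proteasome partners and shuttle factors, 4 were lower, 1 was higher and 9 were not called, beside 45.7% of all features called and 23.6% called lower. Their median was -0.30 against 0.05 for all features. By array it was -0.07, -0.84, -0.19 and -0.16 on preparations 1 to 4. Preparation 2 was lowest in 12 of the 13 genes with values on 4 arrays. The count of lower genes was 2, 3, 1 and 4 without preparations 1 to 4. The gene skn-1, for the transcription factor that raises proteasome genes when the proteasome is impaired, stood at -0.74 ± 0.51 (SD, n = 4, limma adjusted p = 0.0306) and was uncalled when preparation 1, 2 or 3 was left out (means -0.75, -0.52 and -0.76, adjusted p = 0.081, 0.0664 and 0.0935). The gene ddi-1, for a protease that activates a form of that factor, was lower on 4 of 4 arrays at -1.04 ± 0.33 (SD, n = 4, limma adjusted p = 0.00413). The gene png-1, for a glycanase in the same step, averaged -0.02 and was not called. The paralogues cdc-48.1 and cdc-48.2, for the segregase that pulls tagged proteins out of complexes, averaged -0.20 ± 0.44 (not called) and 0.77 ± 0.41 (SD, n = 4, limma adjusted p = 0.0183). The gene cdc-48.2 was uncalled when preparation 1, 3 or 4 was left out (adjusted p = 0.0578, 0.0714 and 0.0589) and under ribosomal or chemoreceptor centring (means 0.37 and 0.43, adjusted p = 0.451 and 0.261).

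De-ubiquitinating enzymes whose symbols fall outside the naming rule were mostly lower. They were listed with signalosome genes and the translation factor gene eif-3.F. Of 12 tested in this list, 8 were lower, 1 was higher and 3 were not called, with a median of -0.63. Among all features 23.6% were called lower and 22.1% higher. The lower genes included eif-3.F at -0.59 but no signalosome gene, and csn-5 of the signalosome averaged -0.42 and was not called. Only csn-2 and csn-5 of the listed signalosome genes had values, so the rest of that complex was not seen. The OTU protease gene otub-3 had -1.52, -1.81, -1.75 and -1.84, a mean of -1.73 ± 0.14 (SD, n = 4, limma adjusted p = 0.000245). The gene math-33, a counterpart of human USP7, stood at -0.79 ± 0.46, a call lost without preparation 1, 2 or 3 (adjusted p = 0.0781, 0.0562 and 0.0669), and atx-3, a counterpart of ataxin-3, at -0.88 ± 0.32 (SD, n = 4). The higher gene, csn-2 of the signalosome, had 0.41, 1.80 and 3.40 on preparations 1, 2 and 4. Its spread (SD 1.5, n = 3) was nearly as wide as its mean of 1.87. It was uncalled without preparation 2 (1.91, limma adjusted p = 0.112) or 4 (1.11, limma adjusted p = 0.0625). Ribosomal and chemoreceptor centring each ended the csn-2 call too. Without preparations 1 to 4 the lower genes numbered 4, 5, 3 and 6.

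The pathways of the ubiquitin-like proteins held more lower than higher genes. Of 15 tested genes for SUMO, NEDD8 and UFM1, 8 were lower, 1 was higher and 6 were not called. Among all features 23.6% were called lower and 22.1% higher. The median of the 15 was -0.70, and by array it was -0.55, -1.18, -0.47 and -0.57 on preparations 1 to 4. The SUMO gene smo-1 was the higher one, with 0.87, 1.97 and 3.48 on preparations 1 to 3 and no value on preparation 4, and its call was lost without preparation 2 (2.18, adjusted p = 0.0616). The gene aos-1, for the partner of UBA-2 in the SUMO E1, stood at -1.01 ± 0.32 (SD, n = 4), where both uba-2 probes together were near 0. The UFM1 ligase gene ufl-1 and the UFM1 protease gene odr-8 were lower at -1.03 ± 0.50 and -1.0 ± 0.42 (SD, n = 4, limma adjusted p = 0.00863 and 0.00688), whereas the E1 gene uba-5 of that pathway was higher.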

How the data were processed

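The authors deposited 1 table of log2 ratios, with 20000 probes and a column per array; the method of scaling, image analysis and spot filters are not given in the sources used here. The base follows from the deposited values: as powers of 2, 100% of ratios below 3 were whole multiples of 0.001 (within 0.01 of a step), and in base e or 10 only 2.2% to 2.6% were. Array medians were -0.01 to 0.07, and values were used as deposited. Spot intensities were not used, so faint spots could not be filtered, and no dye swap is recorded.

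Probes were named by the platform's own annotation, with symbols brought up to date by gene identifier in the WBcel235 gene table; probes of 1 gene were averaged per array. The 19214 of 19513 features that had 3 or more values entered limma 3.58.1 in R 4.3.3 (intercept, eBayes, two-sided, Benjamini-Hochberg over all features, called at an adjusted p under 0.05). The step was tested on simulated data. The per-array difference between rpn-6.1 and rpn-6.2 used the exact sign-flip test. Figures used matplotlib 3.10.9.

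The genes, lists and tests were chosen with earlier results of these data known. Per-array values are given for the 6 largest called ratios in each direction, up to 2 called genes per role, the rpn-6 pair and a fixed list that included the ubc- genes; protein sequences were not used here, so paralogues were paired by name alone. Values on every array of rpt-2, rpn-11, usp-5, pas-7 and genes of other lists were added after they were seen, as was the choice of the genes named from those lists. Not all listed genes were found: 14 of 21 partners and shuttles, 10 of 14 for the anaphase-promoting complex and 20 of 23 ligases were. So were 15 of 18 genes for ubiquitin-like proteins and 12 of 17 in the list with the signalosome. Alternatives were other scalings and centrings, robust eBayes, other limits on missing values, single probes, array weights, an adjusted p under 0.01, leaving out each preparation, and the period of the arrays as covariate or random block. No coordinates are printed.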

Additional observations from a re-analysis of the deposited data

Results flagged for a closer look

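Of 47 genes with values on 4 arrays, 4 had an array far from the other values for their range, and so did 1 of 14 group medians; chance alone gives about 1 in 20. The gene pbs-5 was high on preparation 4 at 0.96, and usp-50 was high there at 0.23. On preparation 2, rpn-10 was low at -0.31 and usp-39 at -0.87, and the median of the USP proteases was low at -0.92.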

How the results depend on the processing

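No paired analysis was possible because the arrays form a single group with no second group to pair. The counts of called genes were 5 higher and 6 lower, of which proteasome subunits made 4 and 1 and ubiquitin genes and enzymes 1 and 5, beside 4242 and 4535 of all features. With arrays centred on ribosomal protein genes, 1 gene was higher (1 subunit, 0 enzymes), no subunit was lower (0), and 1624 features were higher. With arrays centred on chemoreceptor genes, 1 was higher (1 subunit, 0 enzymes), 3 subunits were lower, rpn-3 and rpn-6.1 among them, and 1982 features were higher. With array weights 10 were higher (7 subunits, 3 enzymes) and 12 lower (6 subunits), beside 6074 higher and 6146 lower of all features. At an adjusted p under 0.01, 1 was higher (1 subunit, 0 enzymes), 2 lower (0 subunits, 2 enzymes), and 2393 and 2683 features. Scale normalization, values on at least 2 arrays and period as a covariate left 0 lower subunits. Leaving out each preparation gave 2 to 7 higher and 2 to 5 lower genes, 2 to 5 higher and 0 to 1 lower subunits, 0 to 2 higher and 2 to 4 lower enzymes, and 2759 to 3784 higher and 2933 to 4213 lower features, lowest without preparation 3. The rpn-6.1 minus rpn-6.2 difference was -2.67 to -2.10 when a preparation was left out; each gene has 1 probe, so single probes gave the same value. No called gene changed sign. The cause of the other changes was not tested.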

Other observations

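Ubiquitin ligases, which choose the proteins to be tagged, included 9 lower genes in males. Of 19 tested genes for HECT and other ligases, 9 were lower, 1 was higher and 9 were not called. Among all features 23.6% were called lower and 22.1% higher. The median log2 ratio was -0.69 for these ligases, against 0.05 for all features. The ligase median was -0.39, -1.23, -0.55 and -0.255 on preparations 1 to 4, and preparation 2 was lowest in 16 of 19 genes. Without preparations 1 to 4 the lower genes numbered 8, 7, 6 and 11. The largest was ari-1.3, of the Ariadne family, with -0.97, -2.17, -1.68 and -1.89 and a mean of -1.68 ± 0.51 (SD, n = 4, limma adjusted p = 0.0011). Its neighbours by name, ari-1.1 and ari-1.2, averaged -0.62 (not called) and -0.86. The higher gene was pdr-1, the worm parkin, at 0.93 ± 0.77 (SD, n = 4). It was uncalled without preparation 2 or 3 (means 0.89 and 0.59, limma adjusted p = 0.102 and 0.134). Ribosomal centring, chemoreceptor centring and scale normalization each ended the pdr-1 call too.

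Of 10 tested genes of the anaphase-promoting complex, the ligase that ends metaphase, 4 were lower and none was higher, beside 23.6% of all features called lower and 45.7% called in all. They were apc-2 at -1.43 ± 0.37, emb-30 at -1.19 ± 0.70, emb-27 at -1.07 ± 0.47 and gfi-3 at -0.99 ± 0.35 (SD, n = 4, limma adjusted p from 0.00116 to 0.0105). The activator genes fzy-1 and fzr-1 averaged -0.31 and 0.36 and were not called. Of 5 markers each of body wall muscle and intestine, 2 and 2 were higher and none was lower, with medians of 1.34 and 0.41, beside 22.1% of all features called higher.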
